A study of Homo sapiens with 9 samples.

Results

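A set of 10 genes that encode cohesin and the proteins that load, hold or release it was described in SKNO-1, a line of human myeloid leukaemia cells with the AML1-ETO (RUNX1-RUNX1T1) fusion. They were SMC1A, SMC3, RAD21, STAG1, STAG2, NIPBL, MAU2, WAPAL, PDS5A and PDS5B. A gene was taken by its symbol in the count files, where these 10 were among 25680 symbols, and where a symbol had several RefSeq transcript rows the row with the highest total over the samples was used. The 10 members had 17 rows in all, and 4 members had more than 1 row. Messenger RNA had been sequenced in 9 samples. EV was the control group, SH2 and SH3 were cells given one of the pair of short hairpin RNAs (shRNAs) against ASXL2, a chromatin regulator, and each group held 3 samples numbered 1, 13 and 25. All of the cells were of the same line and carried the fusion. The labels do not explain EV, which the study's text calls a control shRNA, nor what the numbers stand for. The study's text describes the 3 samples of a group as biological replicates without saying how they were grown, so p values here measure the spread between these samples. SKNO-1 is a single cell line, and the shRNAs lower but do not remove their target.

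Cohesin is a ring-shaped complex that encircles DNA, holds sister chromatids together from replication to mitosis, and extrudes the chromatin loops that bring enhancers near promoters. SMC1A and SMC3 are the long coiled-coil arms of the ring, RAD21 is the cleavable subunit that closes it, and STAG1 or STAG2 is the fourth subunit, of which a given complex holds only one. NIPBL and MAU2 together load the ring on DNA, WAPAL opens it again, and PDS5A and PDS5B bind it and serve both release and its stable closure. Loss-of-function mutations of cohesin genes, STAG2 above all, recur in myeloid leukaemia, and they occur together with AML1-ETO.

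The samples held 27714431 to 35406063 counts with a single row per symbol, of which the 10 members took 0.168 to 0.204%. At this depth, 3 counts were worth 0.0847 to 0.108 CPM, the unit of level used here, a read count relative to the effective library size, far below every member, and this floor covers counting error only. The cell line matched its label in 6 of the 7 markers set for it: MPO reached 6366 to 10240 CPM and RUNX1T1, the fusion's ETO part, 111 to 138 CPM, whereas CD34 stood at 0.0680 to 0.309 CPM, near the floor. The 7 markers of T cells, epithelium, fibroblasts and liver summed to 0.0364 to 0.282 CPM in every sample, and 3 of them had no count at all. ASXL2 itself was at 67.9, 67.9 and 74.7 CPM in EV 1, 13 and 25, at 30.4, 36.2 and 36.2 CPM in SH2 and at 26.9, 29.0 and 41.1 CPM in SH3, so that 48.8% ± 4.26 (SD, n = 3) and 45.8% ± 8.13 of the same-numbered control remained.

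None of the 10 members was called between the groups in the main test, which called no gene at all, ASXL2 included. With the samples paired by label number, NIPBL was called in some settings and not in others. NIPBL, the large subunit of the loader, came nearest: its level was lower in all 6 ASXL2 knockdown samples than in any of the 3 controls, at about 80.2% of the control with SH2 and 82.8% with SH3, whereas its partner MAU2 stood at 96.8% and 102%. For the mean of both shRNAs the log2 fold change of NIPBL was -0.30, and -0.17 after a correction for transcript length and GC content, with MAU2 then at 0.05. In bulk RNA, a lower level per cell and fewer cells with the transcript cannot be told apart. The ring subunits, the STAG pair, WAPAL and the PDS5 pair overlapped between the groups. Differences also separated the label numbers, in every group alike: SMC1A, STAG1 and PDS5A were lower and STAG2 was higher in the samples numbered 1. The STAG2 call was lost when certain samples were left out. Such differences were common, since 46.3% of all genes tested were called between number 1 and the others.

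With edgeR's quasi-likelihood test on all 9 samples, Benjamini-Hochberg adjusted p values were above 0.05 for all 10 members in SH2 against EV, SH3 against EV, the mean of both against EV, and SH3 against SH2. In each of these comparisons the same fit called 0% of the 14199 genes tested, ASXL2 included (adjusted p = 0.808 for SH2 and 0.612 for SH3). Counting unadjusted p values under 0.05, 1 member passed in each comparison with EV, NIPBL each time, and 0 in SH3 against SH2. DESeq2 in the same design called 0 members too, and 24, 22, 44 and 11 of 19912 genes in the order of comparisons above. The label numbers pair the samples, and with the number as a block the fit called 0.282% of all genes for SH2, 0.416% for SH3, 1.1% for the mean of both and 0.106% for SH3 against SH2. The members called by this edgeR fit stayed at 0 in all 4, while ASXL2 was then past the threshold. Its log2 fold changes were -1.04 (SE 0.0993, adjusted p = 0.00469) for SH2 and -1.13 (SE 0.0998, adjusted p = 0.00407) for SH3. DESeq2 with the block called 1 member, NIPBL, for SH2 and for the mean of both.

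**Figure D1:**
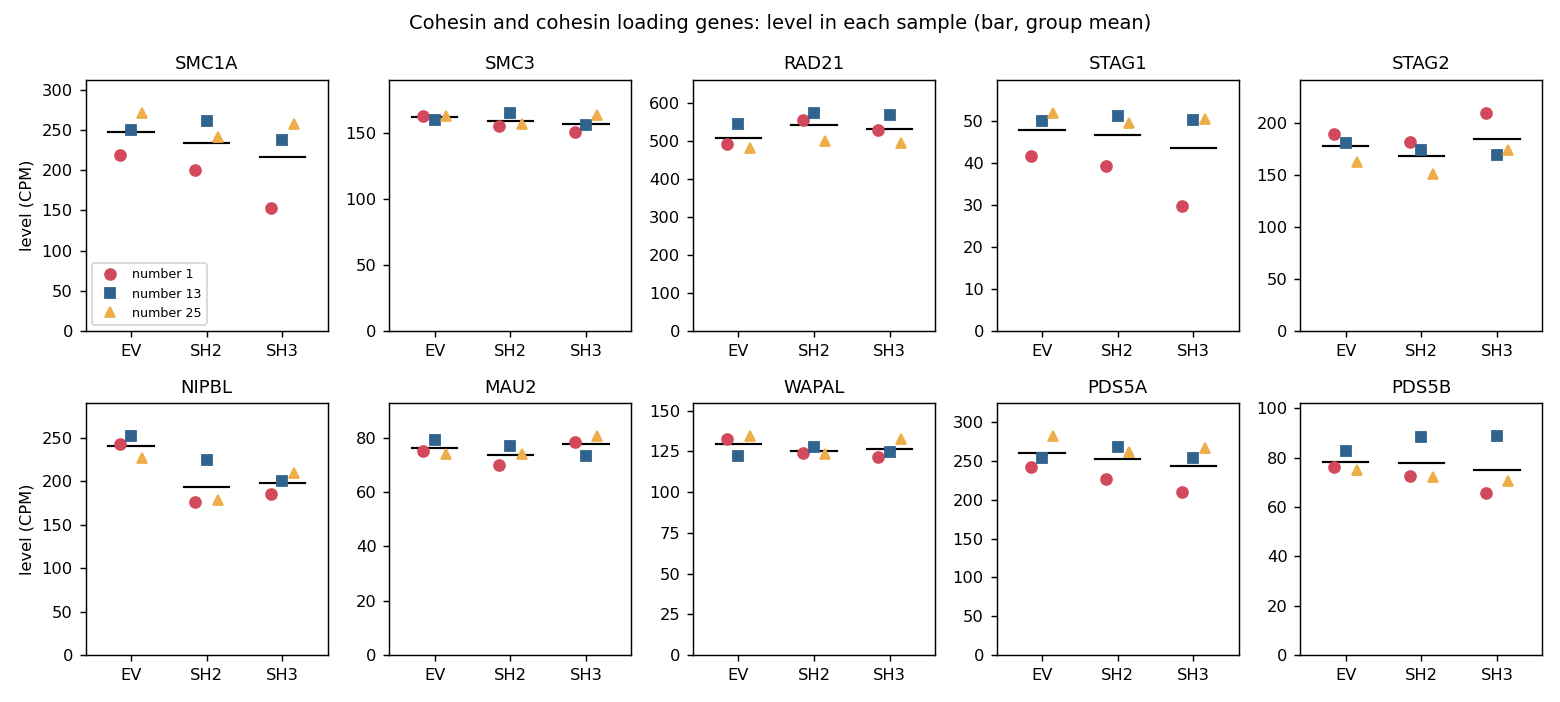
Level of each of the 10 genes in CPM (y axis, from 0, scaled per gene) in the 3 samples of EV, SH2 and SH3, with colour and shape for the label number and a bar at the group mean. The 6 SH2 and SH3 points of NIPBL lie below its 3 EV points, and the points numbered 1 lie lowest for SMC1A, STAG1 and PDS5A in every group.

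The levels of the 10 genes were compared per length of the canonical transcript. In EV, RAD21 was highest at 138 ± 9.11 CPM per kb (SD, n = 3), followed by PDS5A at 36.5 ± 2.82, SMC3 at 29.4 ± 0.308, STAG2 at 28.7 ± 2.20, SMC1A at 25.4 ± 2.70, NIPBL at 23.1 ± 1.25, WAPAL at 20.6 ± 1.03, MAU2 at 15.7 ± 0.598, PDS5B at 10.4 ± 0.565 and STAG1 at 7.89 ± 0.897 CPM per kb. The ranges of neighbours overlapped for SMC3 and STAG2, for STAG2 and SMC1A, and for SMC1A and NIPBL, and the other neighbours were apart. The ring arms were thus at similar levels per length, while RAD21 stood far above the subunits it joins, and STAG2 and PDS5A exceeded their paralogues STAG1 and PDS5B. With SH2 and with SH3, WAPAL came before NIPBL in this order, and with SH3 STAG2 came before SMC3, in each case with overlapping ranges. The libraries were not stranded, and the antisense gene RAD21-AS1 overlaps the start of RAD21, so reads of that pair cannot be told apart there.

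Of the ring subunits, SMC3 (chromosome 10, 112327453 to 112365806, plus strand, GRCh37) varied least. It read 163, 160 and 163 CPM in EV 1, 13 and 25, 156, 166 and 157 CPM in SH2, and 151, 156 and 164 CPM in SH3. These ranges overlap, and the log2 fold change of the mean of SH2 and SH3 against EV was -0.04 (95% interval -0.18 to 0.11). This interval and those of the other members for the mean contrast are from the fit without the block. SMC1A (X, 53401070 to 53449603, minus strand), its partner arm, read 219, 250 and 272 CPM in EV, 200, 261 and 241 CPM in SH2, and 153, 238 and 257 CPM in SH3. The sample numbered 1 was the lowest of each group, and SH3 1 the lowest of all 9. The log2 fold change was -0.13 (95% interval -0.50 to 0.23). RAD21 (8, 117858173 to 117887015, minus strand) read 492, 544 and 482 CPM in EV, 554, 574 and 499 CPM in SH2, and 528, 568 and 495 CPM in SH3. It was above the same-numbered control in 6 of 6 pairs, yet the groups overlapped. SH2 and SH3 of a number share their control, and for how many of all genes this was so was not counted. The RAD21 log2 fold change of 0.08 (95% interval -0.12 to 0.28) was the only positive value among the members.

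STAG1 (3, 136055078 to 136471220, minus strand) read 41.7, 49.9 and 51.9 CPM in EV, 39.1, 51.2 and 49.5 CPM in SH2, and 29.7, 50.1 and 50.4 CPM in SH3. The samples numbered 13 and 25 lay within 49.5 to 51.9 CPM whatever the group, and those numbered 1 lay below them. STAG2 (X, 123095556 to 123236506, plus strand), the paralogue most often mutated in myeloid leukaemia, read 189, 181 and 163 CPM in EV, 181, 173 and 150 CPM in SH2, and 210, 169 and 174 CPM in SH3. Here the sample numbered 1 was the highest of each group. Between groups the log2 fold changes of the mean contrast were -0.09 (95% interval -0.48 to 0.30) for STAG1 and -0.01 (95% interval -0.24 to 0.22) for STAG2. Of the 4 RefSeq variants of STAG2 other than the one used, each gave a fold change within 0.01 of the same value on the log2 scale.

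NIPBL (5, 36876871 to 37066515, plus strand) has the longest transcript of the 10 members, 10425 nt, and MAU2 (19, 19431638 to 19469563, plus strand) one of 4845 nt. The 250 bases before the annotated start of each are shown because NIPBL came nearest to a difference between the groups and MAU2 is its partner in the loader; they are from RefSeq on GRCh38.p14, 5′ to 3′ on the gene's strand, at chr5:36876519-36876768 for NIPBL and chr19:19320579-19320828 for MAU2. Capitals mark matches on either strand to the letters TGTGGT (RUNX), CCGGAAG (ETS), GCGGGAA (E2F) or GGGCGG (GC box), where matches of different motifs may overlap.
NIPBL: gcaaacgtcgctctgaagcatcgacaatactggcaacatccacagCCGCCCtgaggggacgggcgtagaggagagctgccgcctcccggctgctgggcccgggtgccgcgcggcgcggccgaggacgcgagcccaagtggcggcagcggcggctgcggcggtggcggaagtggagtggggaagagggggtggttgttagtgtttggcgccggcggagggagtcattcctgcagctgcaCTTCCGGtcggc
MAU2: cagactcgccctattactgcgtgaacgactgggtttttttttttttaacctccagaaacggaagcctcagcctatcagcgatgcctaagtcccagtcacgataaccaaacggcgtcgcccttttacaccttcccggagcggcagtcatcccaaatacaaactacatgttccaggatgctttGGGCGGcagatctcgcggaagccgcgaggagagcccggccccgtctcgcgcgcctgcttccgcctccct
NIPBL held an ETS match and a GC box, and MAU2 a GC box only. Of all 35116 promoter windows of this length, 11% held the RUNX letters, 8.52% the ETS letters, 5.52% the E2F letters and 42.6% the GC box. Of the 10026 tested genes with a window, the set to which the members belong, 11.5% held the RUNX letters, 18.6% the ETS letters, 10.5% the E2F letters and 72.4% the GC box. Among the 9 members with a window, WAPAL listed there as WAPL, the RUNX letters were found in 1 (PDS5B), the ETS letters in 2 (NIPBL and SMC1A), the E2F letters in 3 and the GC box in 9. A match of letters is not a binding site, and the counts here do not measure binding.

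NIPBL read 243, 252 and 227 CPM in EV 1, 13 and 25. It read 177, 224 and 178 CPM in SH2 and 185, 201 and 209 CPM in SH3. The highest knockdown sample, SH2 13, was just under the lowest control, EV 25, so the groups did not overlap. All 6 knockdown samples lay below all 3 controls for 2.61% of the genes tested and above them for 2.16%; among the members this was so for NIPBL only. The log2 fold change was -0.32 (SE 0.113, adjusted p = 0.872) for SH2 and -0.28 (SE 0.113, adjusted p = 0.967) for SH3. With the number as a block it was -0.32 (SE 0.0846, adjusted p = 0.112) and -0.28 (SE 0.0845, adjusted p = 0.134), and for the mean of both -0.30 (SE 0.0724, adjusted p = 0.0728). The shRNAs did not differ for NIPBL beyond the error, with a difference of 0.05 between them (SH3 minus SH2; 95% interval -0.14 to 0.23).

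Whether NIPBL passed the threshold depended on the setting of the blocked fit. NIPBL was called for SH2 by DESeq2 with the block (adjusted p = 0.0219). EdgeR with the block called it when only EV and SH2 were fitted (adjusted p = 0.00743) and without SH3 1 (adjusted p = 0.0186). In the same order, these fits called 366 of 19912, 2097 of 13989 and 1604 of 14291 genes. The blocked edgeR fit of all 9 samples called 40 of 14199. For the mean of both shRNAs NIPBL was called by DESeq2 with the block (adjusted p = 0.00801) and by edgeR with the block without SH3 1 (adjusted p = 0.0193). These fits called 605 of 19912 and 1755 of 14291 genes, where the blocked edgeR fit of all 9 samples called 156 of 14199. For SH3 alone NIPBL was called under none of the settings. Both NIPBL transcript rows, NM_015384 and NM_133433, gave the same picture, with log2 fold changes of -0.30 each for the mean contrast.

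MAU2 read 75.1, 79.4 and 73.9 CPM in EV, 70.1, 77.0 and 74.1 CPM in SH2, and 78.6, 73.5 and 80.6 CPM in SH3. These ranges overlap, and the log2 fold change of the mean contrast was -0.01 (95% interval -0.17 to 0.15). The ratio of NIPBL to MAU2 counts needs no library size, since both counts come from the same library. The ratio was not corrected for transcript length, in which NIPBL (10425 nt) and MAU2 (4845 nt) differ. It was 3.16 ± 0.0867 (SD, n = 3) in EV, 2.61 ± 0.264 in SH2 and 2.56 ± 0.187 in SH3, with each of the 6 knockdown samples below each control. The log2 ratio was lower by 0.29 on average (difference -0.290), with p = 0.0119 in a two-sided exact permutation test over 84 arrangements, the smallest p that these can give, and 0.0357 after adjustment over the 3 ratios tested. When arrangements were kept within the label numbers, p was 0.037, the smallest value that 27 arrangements allow, and 0.111 after adjustment. With a single sample left out, the log2 difference was -0.325 to -0.264 and the adjusted p 0.0536 to 0.107. As the only low p of the 3 ratios, it could not give an adjusted p under 0.0536 in these runs. With a control left out, p was the smallest possible, 0.0357. Without SH2 13 or SH3 13 it was also the smallest possible, 0.0179. Without SH2 1, SH2 25, SH3 1 or SH3 25, p was 0.0357 where 0.0179 was possible. NIPBL had been seen in the gene lists of the study when this ratio was chosen, so its p value is no independent evidence.

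**Figure D2:**
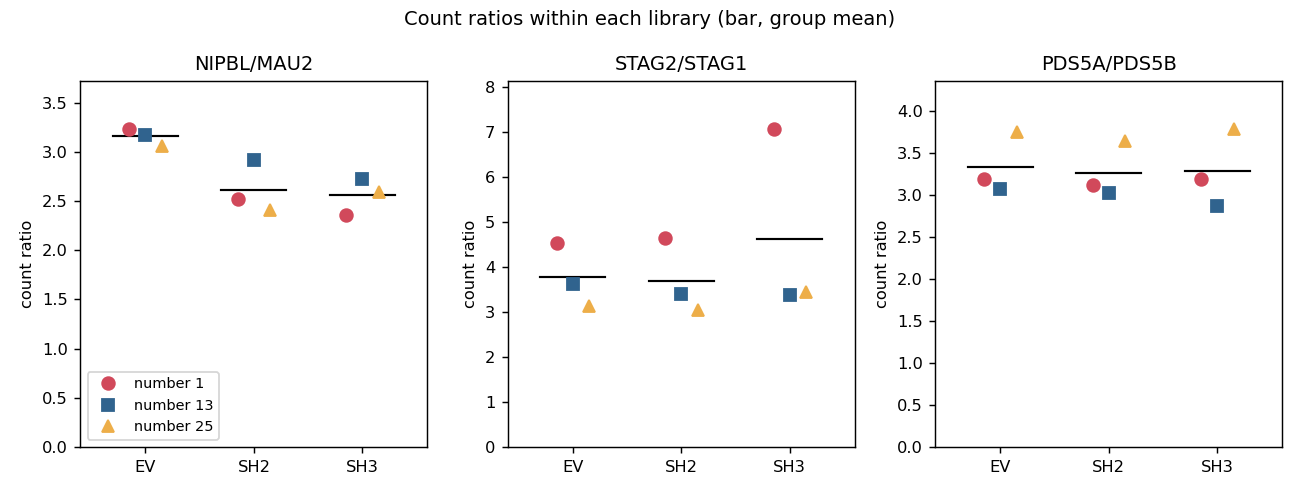
Ratio of the counts of NIPBL to MAU2, STAG2 to STAG1 and PDS5A to PDS5B within each library (y axis, no unit, from 0) in EV, SH2 and SH3, with colour and shape for the label number and a bar at the group mean. NIPBL/MAU2 separates the 6 knockdown samples from the 3 controls, STAG2/STAG1 is highest in the samples numbered 1 and PDS5A/PDS5B in those numbered 25.

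Fold changes differed between genes of different transcript length. Over the 13462 tested genes with a known length and GC content, the median log2 fold change of the mean contrast with the block was 0.11 in the shortest of 5 equal length classes (up to 1644 nt) and -0.11 in the longest (from 5474 nt), where 75.0% of genes were negative. Of the 10 members, 8 were in the longest class, and RAD21, the member with the shortest transcript, was the only one that was positive. When a smooth dependence on length and GC content was removed from each sample, the NIPBL log2 fold change for the mean of both shRNAs was -0.17 (SE 0.0554, adjusted p = 0.211) in the blocked fit. It then was -0.18 for SH2 and -0.16 for SH3, with 95% intervals of -0.32 to -0.03 and -0.30 to -0.01, and MAU2, the shorter partner, was at 0.05 for the mean of both. Under the same correction the targeted gene ASXL2, with a transcript of 12849 nt, went from -1.09 to -0.90 for the mean of both. The members with a negative value went from 9 of 10 to 3 of 10. The median of the members went from -0.04 (0.01 over all genes tested) to 0.01 (0.00 over all genes). Length and GC content were corrected for together, and the part of length alone in the NIPBL difference was not tested.

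**Figure D3:**
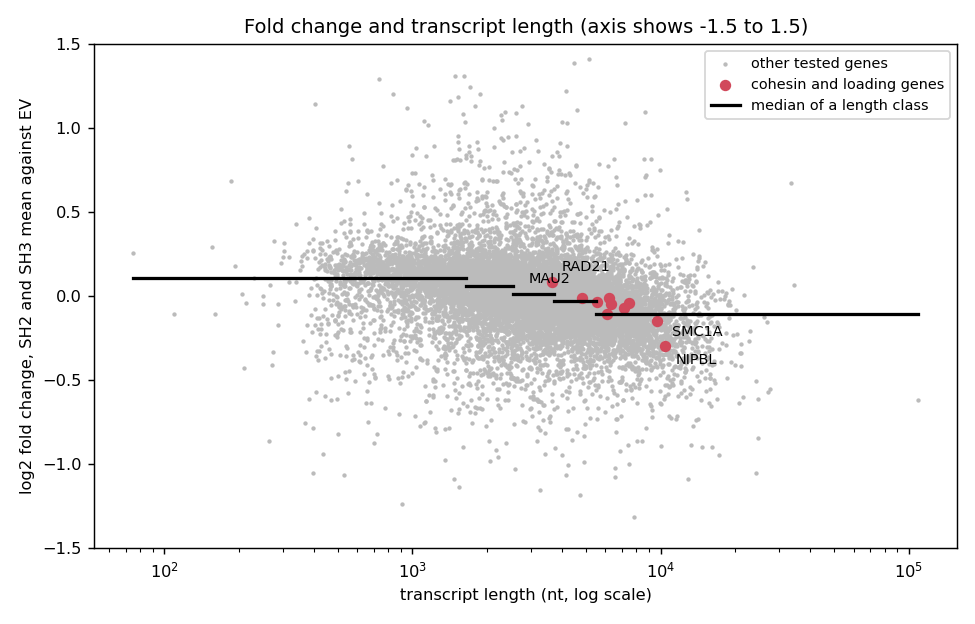
Log2 fold change of the mean of SH2 and SH3 against EV in the blocked fit (y axis, from -1.5 to 1.5, with 4 genes outside) against the length of the canonical transcript in nt (x axis, log scale) for 13462 genes, with the members in red and the median of each length class as a black line. The line steps down from 0.11 to -0.11, and NIPBL lies below it at the long end.

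The release factor WAPAL (10, 88195013 to 88281549, minus strand) read 132, 122 and 134 CPM in EV, 124, 128 and 124 CPM in SH2, and 121, 124 and 133 CPM in SH3. All 3 groups overlapped, and the log2 fold change of the mean contrast was -0.05 (95% interval -0.20 to 0.11). PDS5A (4, 39824483 to 39979531, minus strand) read 243, 255 and 282 CPM in EV, 227, 268 and 262 CPM in SH2, and 210, 254 and 268 CPM in SH3. The samples numbered 1 were the lowest of each group, and the log2 fold change was -0.07 (95% interval -0.30 to 0.16). PDS5B (13, 33160589 to 33352157, plus strand) read 76.1, 82.9 and 75.1 CPM in EV, 72.7, 88.4 and 72.0 CPM in SH2, and 65.8, 88.7 and 70.6 CPM in SH3. The samples numbered 13 were the highest of each group, and the log2 fold change was -0.03 (95% interval -0.28 to 0.22).

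PDS5A had a second transcript row, NM_001100400, whose counts were set against those of the row used, NM_001100399. Their ratio was 28.4%, 28.4% and 32.0% in EV 1, 13 and 25, 22.0%, 26.4% and 26.3% in SH2, and 20.95%, 22.6% and 29.7% in SH3. It was lower than in the same-numbered control in all 6 pairs, although SH3 25 lay above EV 1 and EV 13. Tested among all transcript rows, NM_001100400 had a log2 fold change of -0.34 for the mean contrast with the block (SE 0.0917, adjusted p = 0.087) and of -0.32 without it (adjusted p = 0.850). This row was singled out after its values had been seen.

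**Figure D4:**
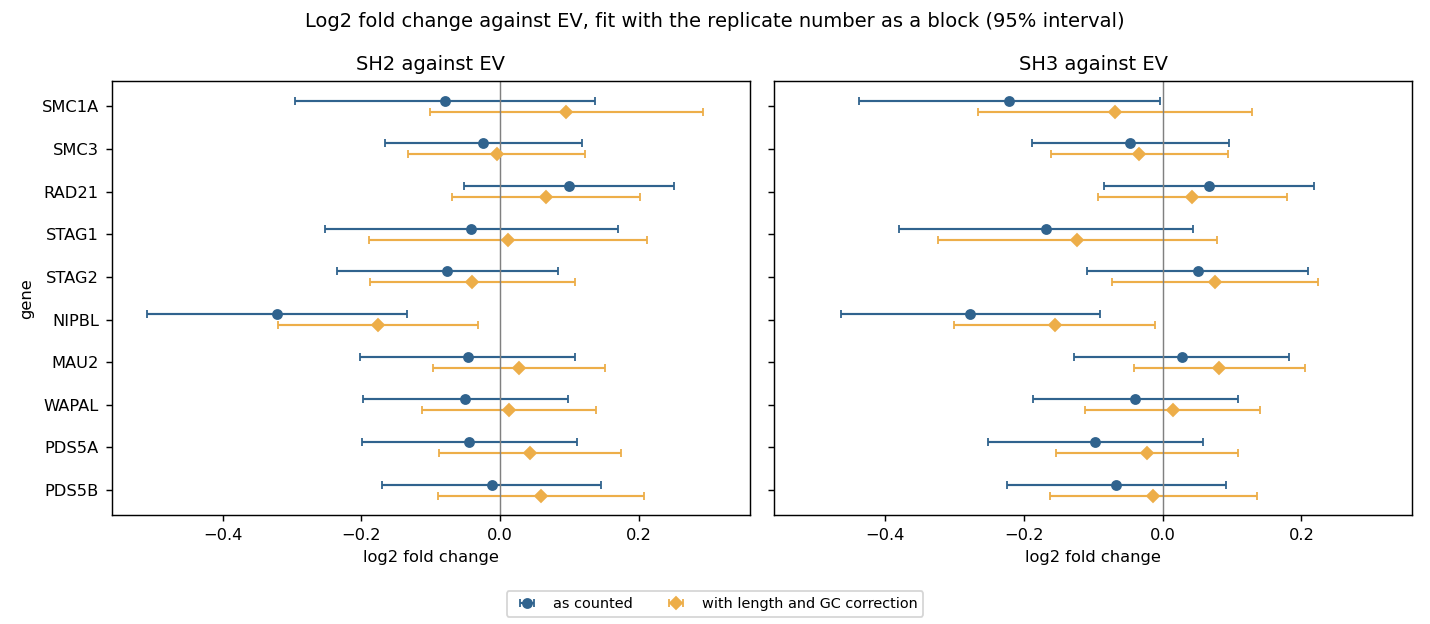
Log2 fold change of SH2 (left) and SH3 (right) against EV for the 10 genes in the blocked fit, with 95% intervals, as counted (circles) and after removal of the dependence on transcript length and GC content (diamonds). The circle of NIPBL lies at -0.32 for SH2 and -0.28 for SH3, and its diamond at -0.18 and -0.16.

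Because each group held the numbers 1, 13 and 25, the members were also compared between numbers in the fit with group and number as terms. Between number 1 and the mean of 13 and 25, 46.3% of all genes tested were called, and 4 of the 10 members, a share near that background. STAG1 was lower by 0.46 on the log2 scale in number 1 (log2 difference -0.46, SE 0.0845, adjusted p = 0.00209). SMC1A was lower as well (-0.42, SE 0.0862, adjusted p = 0.00353), and so was PDS5A (-0.23, SE 0.0614, adjusted p = 0.0126). STAG2 was higher (0.20, SE 0.0618, adjusted p = 0.0227), though its call was lost without EV 25, SH2 25 or SH3 1. For these 4 genes all 3 samples numbered 1 lay on the same side of the other 6 samples, which was so for 26.5% of all genes. Without SH3 1, the most distant sample, the differences were still -0.33 for STAG1 and -0.29 for SMC1A. RAD21, SMC3, MAU2 and WAPAL differed by less than 0.05 between number 1 and the others, with all 4 of the 95% intervals inside -0.17 to 0.13.

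**Figure D5:**
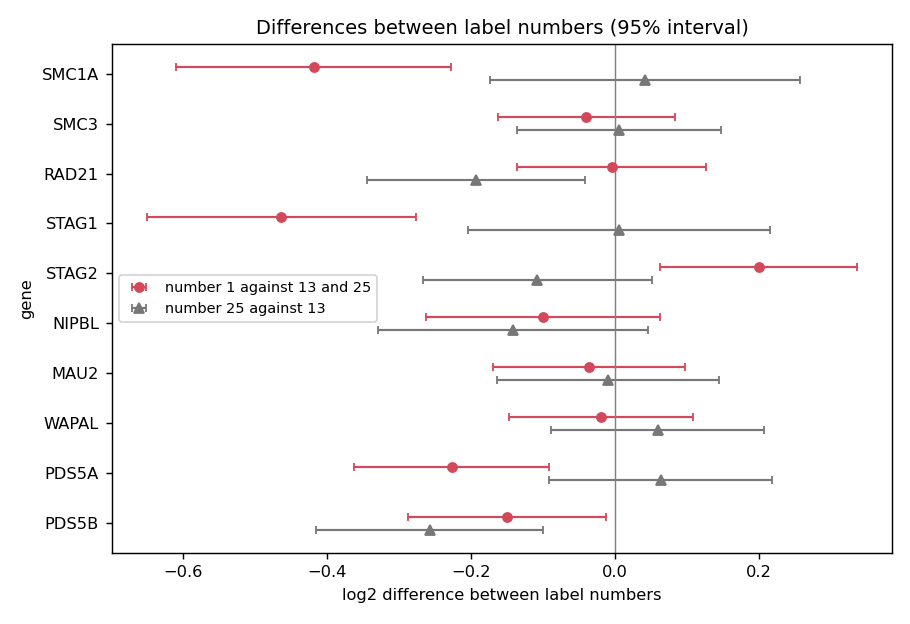
Log2 difference between label numbers for the 10 genes, with 95% intervals, for number 1 against the mean of 13 and 25 (circles) and for number 25 against 13 (triangles). The circles of SMC1A, STAG1 and PDS5A lie at -0.42, -0.46 and -0.23, and that of STAG2 at 0.20.

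Between numbers 25 and 13, edgeR called 5.87% of all genes and 0 of the 10 members. DESeq2 called 984 of 19912 genes and 0 members. In edgeR, 2 members had an unadjusted p under 0.05. These 2 were PDS5B, with a log2 difference of -0.26 (SE 0.0714, adjusted p = 0.0607), and RAD21, with -0.19 (SE 0.0685, adjusted p = 0.122). PDS5B was past the threshold once length and GC content were corrected for (adjusted p = 0.0455). The paralogue ratios showed the same differences within a library. STAG2 counts were 5.41 ± 1.43 times STAG1 counts in the samples numbered 1 (SD, n = 3), 3.46 ± 0.141 times in those numbered 13 and 3.20 ± 0.213 times in those numbered 25, with 7.06 in SH3 1. PDS5A counts were 3.17 ± 0.0425, 2.99 ± 0.107 and 3.73 ± 0.0769 times PDS5B counts. Between knockdown and control neither ratio differed beyond the spread: the log2 difference was 0.0936 for STAG2 to STAG1 (exact permutation p = 0.821, adjusted p = 0.821) and -0.031 for PDS5A to PDS5B (exact permutation p = 0.702, adjusted p = 0.821). With arrangements kept within the label numbers, the permutation p was 0.741 (adjusted p = 0.741) for STAG2 to STAG1. For PDS5A to PDS5B it was 0.259 (adjusted p = 0.389).

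The promoter windows of STAG1 (chr3:136752379-136752628) and PDS5A (chr4:39977912-39978161) are shown because these genes were lower together in number 1. The build, orientation and meaning of the capitals are as for the loader genes.
STAG1: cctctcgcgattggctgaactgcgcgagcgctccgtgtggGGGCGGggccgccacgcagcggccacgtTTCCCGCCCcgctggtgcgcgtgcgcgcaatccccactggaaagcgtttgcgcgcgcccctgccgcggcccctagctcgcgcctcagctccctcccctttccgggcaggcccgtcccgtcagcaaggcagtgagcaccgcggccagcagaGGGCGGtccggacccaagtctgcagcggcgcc
PDS5A: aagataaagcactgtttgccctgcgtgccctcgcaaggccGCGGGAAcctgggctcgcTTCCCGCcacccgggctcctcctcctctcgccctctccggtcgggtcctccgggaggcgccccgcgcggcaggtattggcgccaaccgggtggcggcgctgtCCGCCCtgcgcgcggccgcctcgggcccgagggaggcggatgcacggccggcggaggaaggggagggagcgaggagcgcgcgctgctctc
Each held the E2F letters, and so did a window of SMC1A, while the other 6 members with a window did not. This was noticed after the values were known and was not tested. Over the tested genes with a window, the E2F letters stood before 13.5% of the 2354 that were lower in number 1, 8.86% of the 2394 that were higher and 9.87% of the 5278 that were not called. The ETS letters are in neither printed window, but each window of SMC1A holds them. They differed by more percentage points, at 24%, 15.3% and 17.6% in the same order. The GC box stood at 75.7%, 69% and 72.5%, and the RUNX letters at 9.35%, 13.3% and 11.7%.

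Over the 9 samples the log2 CPM of SMC1A, STAG1 and PDS5A ran closely together, with Pearson's r of 0.98 between SMC1A and STAG1, 0.97 between SMC1A and PDS5A and 0.95 between STAG1 and PDS5A. STAG2 ran against them, with r of -0.81 to STAG1, -0.80 to PDS5A and -0.77 to SMC1A. Over the 45 pairs of members r ranged from -0.81 to 0.98 with a median of 0.31, and 15 pairs were negative, so the genes of the complex did not vary as one. These are descriptions over 9 points that share libraries and numbers. Among 9451 other genes, those whose profile was most like the mean of the 10 members included ZNF592 (r = 0.995), CDK12 (r = 0.976), BRPF1 (r = 0.973) and BRPF3 (r = 0.972).

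The 12 genes that regulate the cohesin cycle, among them the acetyltransferases ESCO1 and ESCO2 and the boundary factor CTCF, had 0 calls between the groups with or without the block in edgeR. With the block, 4 of the 12 had an unadjusted p under 0.05 for the mean contrast, as had 2902 of the 14199 genes tested. In the fit without the block 0 had, beside 942 of all genes. In that fit the median log2 fold change of the 12 was 0.02 against 0.01 for all genes. The smallest p values were those of ESPL1, the protease separase that cuts RAD21 (-0.22, SE 0.0988, adjusted p = 0.767), and ESCO2 (-0.20, SE 0.105, adjusted p = 0.800). ESCO2, which acetylates SMC3 in S phase, read 19.3, 21.7 and 21.9 CPM in EV, 20.7, 21.2 and 22.6 CPM in SH2, and 13.3, 17.1 and 15.8 CPM in SH3. All 3 SH3 samples lay below the other 6, and for how many of all genes this was so was not counted. The log2 fold change of SH3 against EV with the block was -0.45 (SE 0.0862, adjusted p = 0.0504). After correction for length and GC content it was -0.49 (adjusted p = 0.0466). The difference between the shRNAs for ESCO2 was -0.48 (SH3 minus SH2, SE 0.0863, adjusted p = 0.0838). Between number 1 and the others 6 of the 12 were called, 2 higher and 4 lower, a share near the 46.3% of all genes.

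Of the 4 subunits specific to meiosis, 3 could be tested and 0 were called between the groups; RAD21L1 had no count. STAG3, the meiotic counterpart of STAG1 and STAG2, was at 0.655 to 1.76 CPM, with a log2 fold change of -0.61 (SE 0.214, adjusted p = 0.688) for the mean contrast, and REC8, the meiotic counterpart of RAD21, had 0.21 (SE 0.205, adjusted p = 0.937). The other SMC complexes, condensin and SMC5/6, had 14 genes tested and 0 called between the groups. The smallest p values were those of the SMC5/6 subunits NSMCE1 (0.25, SE 0.0974, adjusted p = 0.728) and NDNL2 (0.21, SE 0.103, adjusted p = 0.794). In number 1, 8 of these 14 were lower past the threshold and 0 were higher, where 22.2% of all genes tested were lower and 24.1% higher.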

How the data were processed

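The deposited files hold whole-number counts per RefSeq transcript, 1 file per sample, each listing 48104 transcripts by accession and symbol. The submitters' processing notes name STAR, featureCounts, DESeq2 and the hg19 (GRCh37) build, with no versions. The libraries were of poly(A) RNA and unstranded, per the study's methods. Rows of a gene share reads, so the row with the highest total stood for each of 25680 symbols, 9509 of which had several.

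Counts were tested with edgeR 4.0.16 (R 4.3.3; quasi-likelihood F test, TMM scaling, filterByExpr at a count of 10 and a total of 15, 14199 genes, 1 coefficient per group, 6 residual degrees of freedom). P values were adjusted by Benjamini-Hochberg over all genes of a contrast, with a threshold of 0.05. The SE is the log2 fold change divided by the square root of F. The alternative fit took the label number as a block (4 degrees of freedom). That the numbers pair the samples rests on a check of deviations from the group means: over 9 same-numbered pairs of samples r was 0.398 to 0.731, over 18 others -0.616 to 0.306. Ratios of counts were compared by exact permutation tests.

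Other alternatives were DESeq2 1.42.0, other size factors, no filter, summed rows, fewer groups, each sample left out, no number 1, and a correction by natural splines (5 degrees of freedom) of transcript length and GC content. Fits were tested on simulated data. Lengths and loci came from GENCODE canonical transcripts on GRCh37, promoter windows from RefSeq. The named genes were all members, ASXL2, and of each further list any gene called between groups and the 2 with the smallest p for the mean contrast; the 5 most alike genes had a mean of at least 10 CPM, and 1 of them is not reported here. The members and lists were chosen with earlier results of these data known.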

Additional observations from a re-analysis of the deposited data

Results flagged for a closer look

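DSCC1, a subunit of the clamp loader that takes part in cohesion, was above the same-numbered control in all 3 SH2 samples and below it in all 3 SH3 samples, with a mean log2 difference of -0.397 between the shRNAs (SH3 minus SH2). It read 58.3, 69.7 and 67.5 CPM in EV 1, 13 and 25, 62.4, 75.9 and 77.3 CPM in SH2, and 42.4, 64.9 and 58.3 CPM in SH3. By edgeR the difference between the shRNAs missed the threshold, with adjusted p = 0.998 without the block and 0.108 with it. DSCC1 was flagged as the only gene with such opposite directions, out of the 10 members and the lists of 12, 4 and 14 genes. How many of all genes tested had this pattern was not counted, so the pattern by itself shows no difference between the shRNAs.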

How the results depend on the processing

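Members called: no alternative changed the count of 0 for SH3 against EV or for SH3 against SH2. For SH2 against EV the count was 1 (NIPBL) with the replicate block in DESeq2 and with the block and only the groups of the contrast, and 0 to 1 with the block and each sample left out; for the mean of both it was 1 with the block in DESeq2 and 0 to 1 with each sample left out. In both comparisons the 1 came without SH3 1, where 1604 (SH2) and 1755 (mean of both) of 14291 genes were called. Without the block, leaving out any sample gave 0 in these comparisons. Apart from NIPBL under these settings, the block changed no call of a member. For number 1 against the others the count was 3 to 5 with a sample left out; for 25 against 13 it was 1 (PDS5B) after the length and GC correction and 0 to 2 with a sample left out, the 2 being PDS5B and RAD21 without SH3 1. The cause was not tested.

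The log2 NIPBL to MAU2 difference was -0.290 with adjusted p = 0.111 within numbers, -0.232 (adjusted p = 0.333) within numbers without number 1, where 9 arrangements cannot give a p under 0.111, and -0.325 to -0.264 with a sample left out. STAG2 to STAG1 was -0.0266 without number 1 and -0.0727 to 0.237 with a sample left out; PDS5A to PDS5B was -0.0888 to 0.0566.

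Log2 fold changes of the mean contrast near 0 turned sign. With the block and the length and GC correction they were 0.0134 for SMC1A, 0.0177 for STAG2, 0.0545 for MAU2, 0.0135 for WAPAL, 0.0101 for PDS5A and 0.0229 for PDS5B. With the block they were 0.0114 for PDS5B without number 1 and 0.0105 without EV 1, 0.0194 and 0.0240 for STAG2 without EV 13 or SH3 13, and 0.0242, 0.00802 and 0.0232 for MAU2 without EV 13, SH2 1 or SH3 13. Without the block and with a sample left out, the ranges were -0.178 to 0.0163 for STAG1, -0.0677 to 0.0375 for STAG2, -0.0269 to 0.0220 for MAU2, -0.113 to 0.000391 for PDS5A and -0.101 to 0.0149 for PDS5B. NIPBL stayed negative in every setting run. Counts of all genes called depended on the tool: for the mean contrast 0 in edgeR and 44 in DESeq2 without the block, 156 and 605 with it. The 95% intervals given in the text hold the sizes of difference that remained compatible with these samples under the fit used. Those of the mean contrast are from the fit without the block, which leaves out the pairing by number. The other intervals are from blocked fits. Where an interval held 0, no difference was shown, and a difference of any size inside it remained possible.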
